A study of Homo sapiens with 10 samples.

Results

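The genes described here encode splicing factors: the SR proteins (symbols starting SRSF), the hnRNP proteins (HNRNP), the proteins of the spliceosomal small nuclear ribonucleoproteins (SNRP), the SF3A and SF3B complexes, the U2AF proteins and the PRPF family. They were chosen by symbol among the protein-coding rows of the gene table, which gave 75 of its 27142 genes. All samples came from 697, an established line of leukaemic human B-cell precursors. In the RNA libraries the parental line had been exposed to TPA (12-O-tetradecanoylphorbol-13-acetate, a phorbol ester that activates protein kinase C) at 0.5 µg/ml in 2 libraries, and 2 control libraries came from the same line without the treatment. The labels give the exposure only as a range of 0 to 24 h. The study's other 6 samples, which are ChIP and input DNA, were not analysed here.

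A spliceosome removes an intron by assembling on it from small nuclear ribonucleoproteins (snRNPs). The U1 snRNP reads the start of the intron, the U2AF heterodimer and then the U2 snRNP with SF3A and SF3B read its end and its branch point, and the U4, U5 and U6 snRNPs join as a preassembled particle before catalysis. A ring of Sm proteins forms the core of most snRNPs. SR proteins bind exons and mostly favour their inclusion, whereas hnRNP proteins coat the nascent transcript and often oppose it. Many SR and hnRNP proteins also lower their own mRNA through alternative exons that send it to decay.

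Each gene had 1 value per library in RPKM (reads scaled by the length of the transcript and the size of the library). Levels are set side by side between genes on this scale. They are uncertain where reads of similar copies were not kept apart. The number of reads is not given. From ratios of low values between libraries, the other 3 libraries were put at 92.3% to 98.0% of the depth of control replicate 1. Only ratios near 1 entered this estimate, so it could not have shown a large difference in depth. B-lineage marker genes were above 1 RPKM in every library but did not move together. CD79A, CD79B and CD22 rose (means of 858, 176 and 175 RPKM with TPA, against 208, 83.8 and 58.8 RPKM in control), whereas IGLL1, VPREB1, BLNK and PAX5 fell (means of 8.97, 13.6, 8.02 and 33.3 RPKM with TPA, against 457, 347, 87.0 and 77.3 RPKM in control). The part of these differences in the splicing factor results was not tested. T-cell and erythroid markers summed to at most 0.12 RPKM. Of 6 myeloid markers, 1 (CSF1R) passed 1 RPKM, and only with TPA. Most splicing factor genes were higher in replicate 2 than in replicate 1 of both groups, 57 of 73 with TPA and 66 of 73 in control, with median ratios of 1.14 and 1.11. No label says that replicates were separate cultures, so p-values measure only the spread between these libraries, which may be technical.

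Transcripts of splicing factors were lower with TPA in most cases. Their RPKM summed to 4704 and 5279 with TPA, against 7425 and 8261 in control, which was 1.35% and 1.36% of all RPKM in the TPA libraries and 2.004% and 2.136% in the controls. Of the 75 genes, 73 reached 1 RPKM in 2 or more libraries. They entered a limma fit of log2(RPKM + 1), whose p-values were adjusted over all 12159 genes tested. At an adjusted p under 0.05, 47 fell, 5 rose and 21 did not pass. Without 5 genes close in sequence to another member (HNRNPCL1, HNRNPCL3, HNRNPCL4, U2AF1L5 and HNRNPA1L2), 46 of 68 fell and 5 rose. The summed RPKM above includes these 5. Over all genes tested, 29.8% fell, 28.4% rose and 58.2% passed in either direction. The median log2 fold change of the 73 genes was -0.53 (-0.55 without those 5), against -0.02 over all genes tested. The members stood at a median of 70.7 RPKM, against 10.8 RPKM over all genes tested, so the count was also taken at higher levels. Where the mean reached 10 RPKM, 46 of 66 splicing factor genes fell and 3 rose, against 33.9% and 24.0% of all protein-coding genes at that level.

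The falls were broad and moderate. The TPA libraries lay below both controls for 61 of the 73 genes, against 41.0% of all genes tested, and above both for 7, against 38.8%. Falls of at least 1 on the log2 scale numbered 12 (16.4%, against 11.5% of all genes tested), and rises of that size numbered 2, against 11.7%. The log2 fold changes ran from -1.49 for HNRNPAB to 1.40 for HNRNPLL. In the same libraries 6 proliferation genes (MKI67, TOP2A, CDK1, PCNA, CCNB1 and MYC) summed to 155 and 230 RPKM with TPA, against 882 and 1022 RPKM in control, and all 6 fell. Their part in the splicing factor result was not tested, and fewer cells of a type and less RNA per cell cannot be told apart in bulk RNA. Without control replicate 2 the number that fell was 31, and without control replicate 1 the number that rose was 3. A fit without 1 library takes the spread within groups from the other group alone, and the lone library left is assumed to vary like it. Without either control library the prior degrees of freedom were also infinite. The p-values of such fits, here and below, therefore rest on another estimate of the spread. A miss of the threshold alone does not tell whether the difference itself was smaller. For PRPF8 the log2 fold change was -0.53 with all libraries, -0.24 without TPA replicate 2 and -0.56 without control replicate 2.

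**Figure D1:**
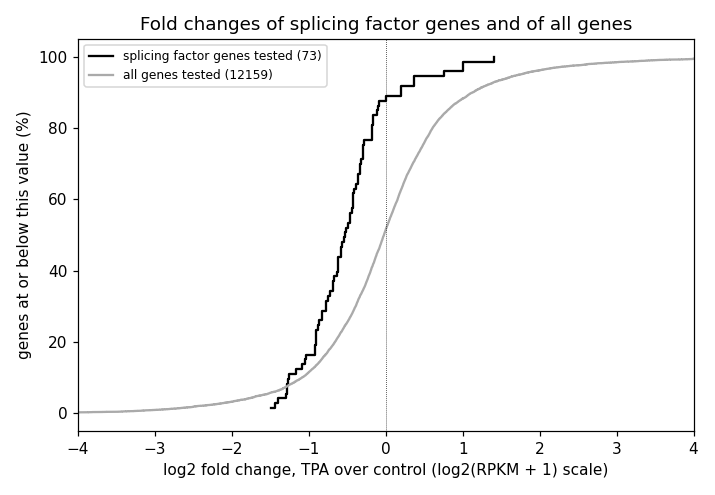
Cumulative share of genes (vertical axis, %) at or below each log2 fold change of TPA over control (horizontal axis, log2(RPKM + 1) scale) for the 73 splicing factor genes tested (black) and all 12159 genes tested (grey). The black curve lies left of the grey one over most of its range, with medians of -0.53 and -0.02, and ends inside it on both sides.

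Among the SR proteins, SRSF1, SRSF2, SRSF3 and SRSF7 each fell by more than 1 on the log2 scale, and SRSF5, SRSF6, SRSF8 and SRSF9 did not pass. Of 12 genes, 11 were tested. Of these 7 fell (63.6%, against 29.8% of all genes tested) and 4 did not pass. In this group 0 rose, against 28.4% of all genes tested, and also 0 at an unadjusted p under 0.05 in limma. The median log2 fold change was -0.44. SRSF2 (SC35, 17q25.1), which binds exonic enhancers and marks nuclear speckles, had 94.8 and 88.6 RPKM with TPA, against 256 and 245 RPKM in control. It was the SR gene with the highest control level, and the groups were far apart. Its log2 fold change was -1.44 (SE 0.132, adjusted p = 5.0e-05).

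SRSF1 (17q22), the founding SR protein, which also acts in mRNA export, had 64.1 and 65.2 RPKM with TPA, against 140 and 154 RPKM in control (log2 fold change -1.17, adjusted p = 1.6e-04). SRSF7 (2p22.1), which carries a zinc knuckle, had 42.9 and 47.8 RPKM with TPA, against 104 and 120 RPKM in control (log2 fold change -1.29, adjusted p = 1.5e-04). SRSF3 (6p21.31-p21.2), the smallest SR protein, had 77.5 and 80.2 RPKM with TPA, against 164 and 174 RPKM in control (log2 fold change -1.09, adjusted p = 2.2e-04). In each of these genes the replicates lay close together and both TPA libraries were below both controls.

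SRSF5 and SRSF6, relatives of SRSF4 with paired RNA recognition motifs, did not follow them. SRSF5 (14q24.1) had 108 and 125 RPKM with TPA, against 91.9 and 112 RPKM in control, and the groups overlapped (adjusted p = 0.313). SRSF6 (20q13.11) had 61.3 and 59.9 RPKM with TPA, against 67.6 and 69.1 RPKM in control (adjusted p = 0.286). SRSF9, at 150 ± 24.5 RPKM with TPA (mean ± SD, n = 2 libraries, as for every such value) and 190 ± 26.8 RPKM in control, had the highest mean in the TPA libraries and did not pass. Of all alternatives run, SRSF5 passed the threshold after quantile normalization alone (log2 fold change 0.34, adjusted p = 0.0273).

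The make-up of the SR transcripts differed between the groups. SRSF2 made 13.5% and 11.4% of the summed SR RPKM with TPA, against 22.1% and 19.2% in control, whereas SRSF5 made 15.3% and 16.1% with TPA, against 7.92% and 8.77% in control. SRSF5 stood at 1.68 and 1.92 times the RPKM of SRSF1 with TPA, against 0.655 and 0.726 times in control. The groups did not overlap for any of these 3 measures. They are built from the same values of SRSF1, SRSF2 and SRSF5 given above, so they are not separate evidence. For single values such as these the smallest two-sided p of an exact permutation test, with 2 libraries a side, is 0.333. SRSF12 was listed at 0 in both controls and at 0.018 and 0.026 RPKM with TPA, and was not tested. SRSF10 was listed at 0.573 and 0.716 RPKM with TPA, against 1.09 and 1.32 RPKM in control, far below the other SR genes tested. Whether this low level, and so its fall, reflects the transcript or the gene model and read assignment was not tested. Without control replicate 2, 4 SR genes fell.

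**Figure D2:**
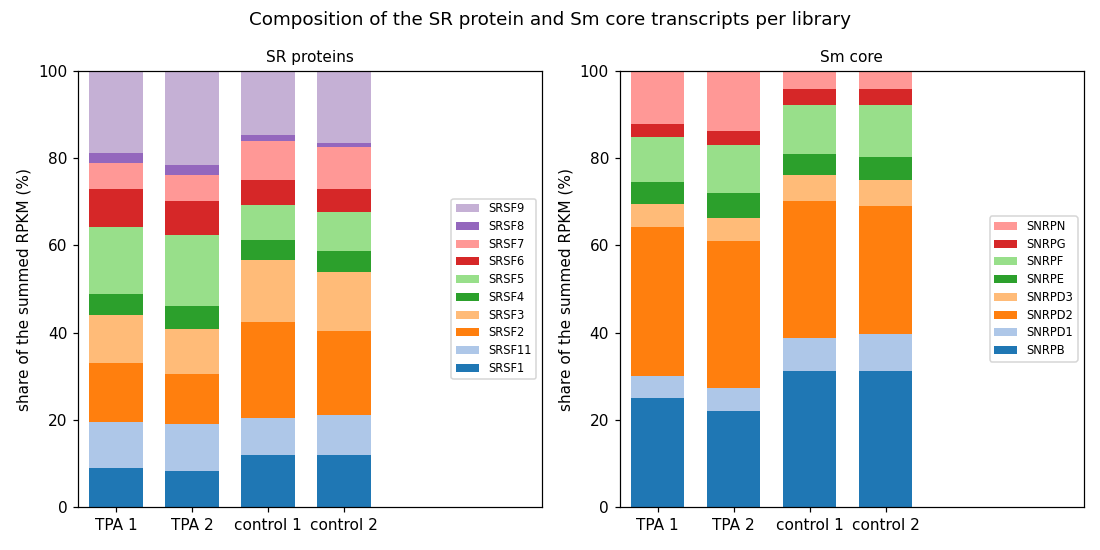
Share of the summed RPKM (vertical axis, %) taken by each SR protein gene (left) and each Sm core gene (right) in the TPA and control libraries (bars, one per library; genes at 1% or more in any library). SRSF5 and SNRPN take wider bands in both TPA libraries than in the controls, SRSF2 and SNRPB narrower ones.

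The hnRNP proteins were the largest group, with 25 genes, of which 24 were tested. Of these 14 fell (58.3%, against 29.8% of all genes tested), 1 rose (4.2%, against 28.4%) and 9 did not pass. The median log2 fold change was -0.47. HNRNPAB (5q35.3), a single-stranded nucleic acid binder, had 76.7 and 89.1 RPKM with TPA, against 215 and 254 RPKM in control (log2 fold change -1.49, SE 0.152, adjusted p = 8.8e-05). HNRNPF (10q11.21), which binds runs of guanine, had 78.9 and 102 RPKM with TPA, against 216 and 260 RPKM in control (log2 fold change -1.39, adjusted p = 2.4e-04). HNRNPR (1p36.12) had 20.5 and 28.5 RPKM with TPA, against 54.7 and 68.4 RPKM in control (log2 fold change -1.30, adjusted p = 6.1e-04). These were the 3 largest falls of the group. They were named by a rule that required groups that did not overlap, so that trait is not a finding here.

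Other hnRNP genes at high levels had log2 fold changes nearer 0, although HNRNPD, the third by mean level, was at -1.28. HNRNPA2B1 (7p15.2), the member with the highest level of all, had 289 and 323 RPKM with TPA, against 520 and 630 RPKM in control (log2 fold change -0.90, adjusted p = 0.0014). HNRNPU (1q44), a scaffold protein that binds chromatin and RNA, had 94.1 and 94.0 RPKM with TPA, against 174 and 175 RPKM in control (log2 fold change -0.89, adjusted p = 6.1e-04). HNRNPC (14q11.2), which binds uridine tracts, had 88.7 and 115 RPKM with TPA, against 135 and 157 RPKM in control (log2 fold change -0.52, adjusted p = 0.029). HNRNPK (9q21.32), which binds cytosine-rich RNA, had 139 and 171 RPKM with TPA, against 194 and 222 RPKM in control (log2 fold change -0.42, adjusted p = 0.047). HNRNPC and HNRNPK were near the threshold: HNRNPC did not pass without control replicate 2 (adjusted p = 0.19) or TPA replicate 1 (adjusted p = 0.137), and HNRNPK without either of those (adjusted p = 0.316 and 0.193) or without control replicate 1 (adjusted p = 0.0895).

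HNRNPA1 (12q13.13), which represses exons by binding UAG-containing sites, had 111 and 118 RPKM with TPA, against 143 and 145 RPKM in control. It did not pass (log2 fold change -0.33, adjusted p = 0.0574), although the groups did not overlap, and its adjusted p was 0.0237 under median-of-ratios scaling. A pseudogene copy, HNRNPA1P10, was listed at 1.04 to 1.05 times the RPKM of HNRNPA1 in every library, so reads of near-identical copies were not kept apart and the level of HNRNPA1 is uncertain. HNRNPCL1, HNRNPCL3 and HNRNPCL4, which resemble HNRNPC in sequence, were listed at 0.00949 to 0.0151 times its RPKM. For HNRNPCL1 the ratio was 0.0120 and 0.0106 with TPA, against 0.00949 and 0.00980 in control. The part of HNRNPC reads in these values was not tested. HNRNPCL2 stayed at 0.162 to 0.266 RPKM and was not tested.

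HNRNPLL was the hnRNP gene that rose. It regulates alternative exons of the CD45 gene in T cells and in plasma cells. HNRNPLL (2p22.1) had 54.7 and 61.0 RPKM with TPA, against 20.2 and 22.3 RPKM in control (log2 fold change 1.40, SE 0.138, adjusted p = 7.1e-05). Its paralog HNRNPL (19q13.2), which binds CA repeats and can act on the same exons, had 110 and 125 RPKM with TPA, against 177 and 186 RPKM in control (log2 fold change -0.63, adjusted p = 0.0053). The ratio of HNRNPLL to HNRNPL RPKM was 0.497 and 0.488 with TPA, against 0.114 and 0.120 in control. Neither call changed in any of the 4 fits that left out 1 library.

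**Figure D3:**
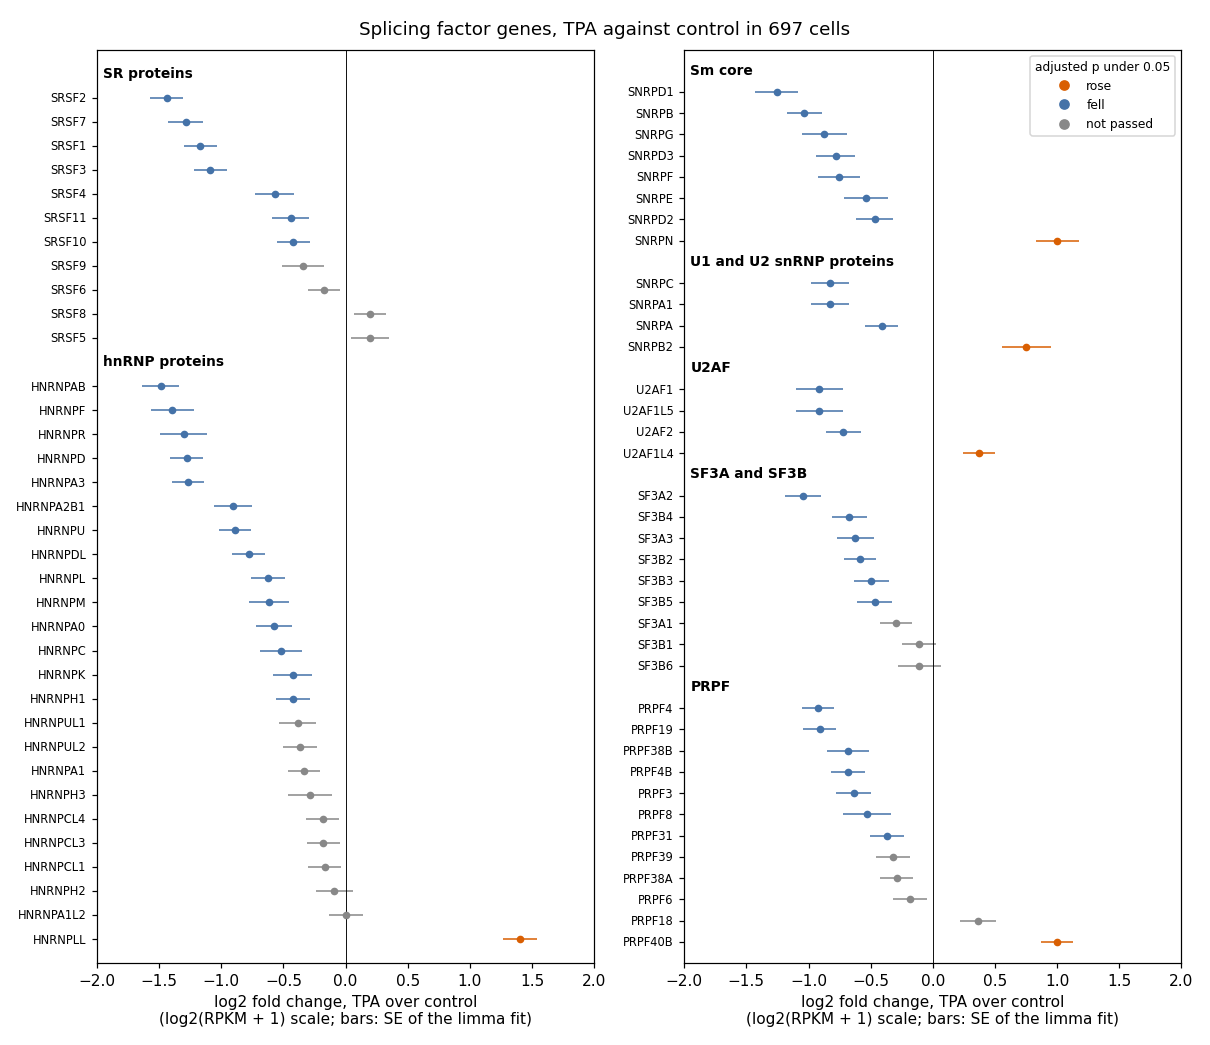
Log2 fold change of TPA over control (horizontal axis, log2(RPKM + 1) scale) for 72 of the 73 splicing factor genes tested, by role; points are the limma estimates, bars their SE, and colours the call at an adjusted p under 0.05. Most points lie left of 0, and the 5 genes that rose (HNRNPLL, SNRPN, SNRPB2, U2AF1L4 and PRPF40B) lie right of it.

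Of the 8 Sm core genes, 7 fell (87.5%, against 29.8% of all genes tested) and 1 rose (12.5%, against 28.4%). The median log2 fold change was -0.77. The genes of all 7 proteins of the common ring fell, and SNRPN, which can stand in for SNRPB, rose. SNRPD1 (SmD1, 18q11.2) had 36.8 and 45.8 RPKM with TPA, against 87.6 and 113 RPKM in control (log2 fold change -1.26, adjusted p = 4.9e-04). SNRPG (SmG, 2p13.3) had 20.8 and 27.8 RPKM with TPA, against 40.1 and 50.2 RPKM in control (log2 fold change -0.87, adjusted p = 0.0040). SNRPD2 (19q13.32) had the smallest fall of the group, with 249 and 295 RPKM with TPA, against 362 and 390 RPKM in control (log2 fold change -0.47, adjusted p = 0.025), and did not pass without control replicate 1, control replicate 2 or TPA replicate 1 (adjusted p = 0.0952, 0.197 and 0.0997). Control levels of the ring ran from 45.1 RPKM for SNRPG to 388 RPKM for SNRPB, so transcripts of proteins that are used in equal number were not listed at equal level in either group.

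SNRPN and SNRPB encode alternative forms of the same ring position and went opposite ways. SNRPN (15q11.2), an imprinted gene expressed from the paternal copy, encodes SmN, a form known chiefly from brain. It had 90.0 and 122 RPKM with TPA, against 49.3 and 54.3 RPKM in control (log2 fold change 1.002, SE 0.171, adjusted p = 0.0015). SNRPB (20p13), which encodes SmB and SmB′, had 184 and 194 RPKM with TPA, against 360 and 416 RPKM in control (log2 fold change -1.03, adjusted p = 4.3e-04). The ratio of SNRPN to SNRPB RPKM was 0.491 and 0.629 with TPA, against 0.137 and 0.131 in control, and SNRPN made 12.3% and 13.9% of the summed Sm RPKM with TPA, against 4.27% and 4.08% in control. SNURF, which is read from the same transcripts as SNRPN, was listed at 1.073 to 1.116 times its RPKM, and their reads cannot be told apart.

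Transcripts of the proteins particular to the U1 and U2 snRNPs also went both ways. Of 4 genes, 3 fell (75%, against 29.8% of all genes tested) and 1 rose (25%, against 28.4%). The median log2 fold change was -0.62. SNRPB2 (20p12.1), which encodes the U2 protein U2B″, had 108 and 148 RPKM with TPA, against 65.7 and 85.1 RPKM in control (log2 fold change 0.75, SE 0.195, adjusted p = 0.011). Its libraries were spread more widely than those of the other 3 genes, and it did not pass without control replicate 1 (adjusted p = 0.0573) or TPA replicate 2 (adjusted p = 0.0654). SNRPA1 (15q26.3), which encodes the partner of U2B″ in the U2 snRNP, had 10.8 and 11.9 RPKM with TPA, against 18.5 and 23.4 RPKM in control (log2 fold change -0.83, adjusted p = 0.0023). The ratio of SNRPB2 to SNRPA1 RPKM was 10.0 and 12.5 with TPA, against 3.54 and 3.64 in control.

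Transcripts of the U1 proteins were lower. SNRPC (6p21.31), which contacts the start of the intron, had 44.6 and 52.1 RPKM with TPA, against 78.9 and 94.4 RPKM in control (log2 fold change -0.83, adjusted p = 0.0023). SNRPA (19q13.2), a close relative of SNRPB2, had 70.4 and 76.8 RPKM with TPA, against 102 and 94.6 RPKM in control (log2 fold change -0.41, adjusted p = 0.030), and did not pass without control replicate 1, control replicate 2 or TPA replicate 1 (adjusted p = 0.251, 0.125 and 0.0918). SNRPB2 stood at 1.54 and 1.93 times the RPKM of SNRPA with TPA, against 0.644 and 0.900 times in control.

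**Figure D4:**
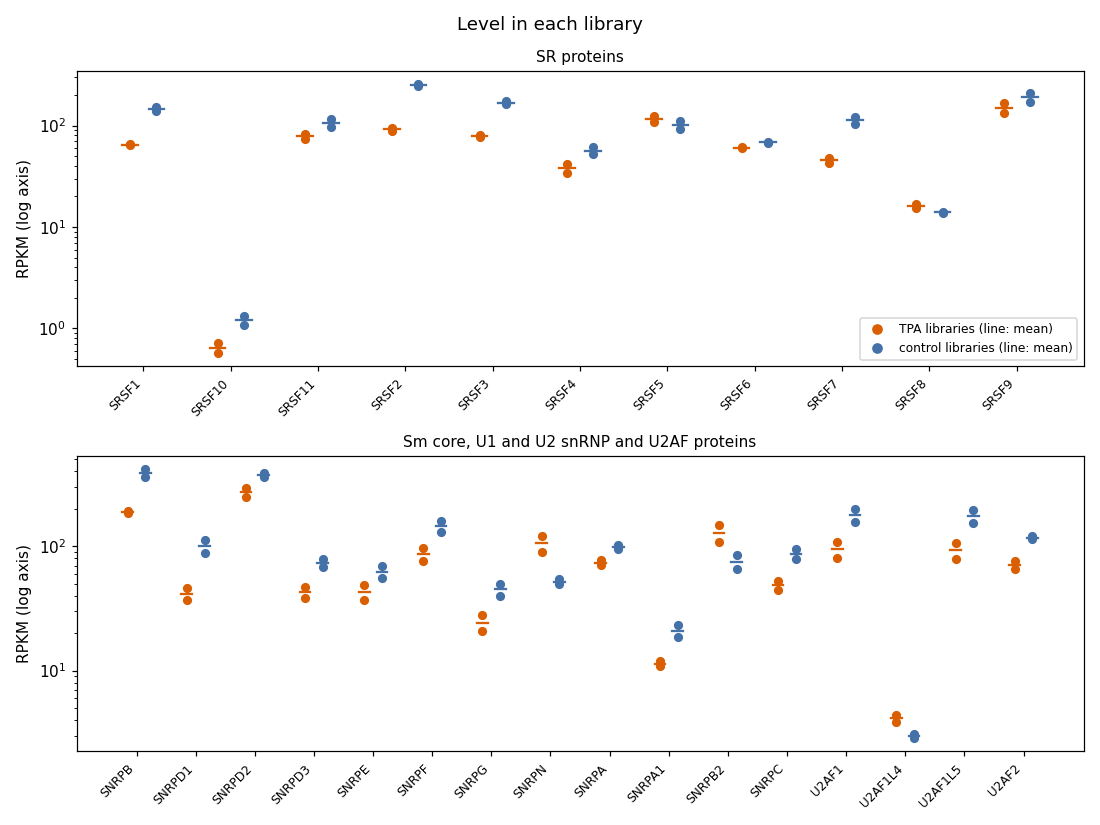
RPKM in each library (vertical log axis) for the SR protein genes tested (top) and the Sm core, U1, U2 and U2AF genes (bottom); points are libraries, TPA left of control within each gene, and short lines the group means. SNRPN and SNRPB2 are the only Sm, U1 or U2 genes whose TPA points lie above both control points, and SRSF1, SRSF2, SRSF3 and SRSF7 show the widest gaps among SR genes.

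Transcripts of both subunits of U2AF, which binds the end of the intron, were lower with TPA. U2AF2 (19q13.42), the large subunit that binds the pyrimidine tract, had 65.8 and 75.5 RPKM with TPA, against 113 and 120 RPKM in control (log2 fold change -0.72, adjusted p = 0.0028). U2AF1 (21q22.3), the small subunit that reads the terminal AG, had 80.9 and 109 RPKM with TPA, against 158 and 201 RPKM in control (log2 fold change -0.92, adjusted p = 0.0038). U2AF1L5, a near-identical copy in the annotation, was listed at 0.972 to 0.975 times the RPKM of U2AF1, so the reads of both genes cannot be told apart. U2AF1L4, a shorter relative of U2AF1, had 4.42 and 3.90 RPKM with TPA, against 2.87 and 3.09 RPKM in control (log2 fold change 0.37, adjusted p = 0.040). It kept its call in 1 of the 4 fits without a library, the one without TPA replicate 2, and leaving out control replicate 1, control replicate 2 or TPA replicate 1 gave adjusted p = 0.237, 0.147 and 0.102. U2AF1L4 is named because it was among the 5 genes that rose, after its values were seen.

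The SF3A and SF3B complexes hold the U2 snRNP on the branch point. Of their 9 genes, 6 fell (66.7%, against 29.8% of all genes tested) and 3 did not pass. In this group 0 rose, against 28.4% of all genes tested, and also 0 at an unadjusted p under 0.05 in limma. The median log2 fold change was -0.49. SF3A2 (19p13.3) had 44.4 and 40.3 RPKM with TPA, against 96.2 and 81.3 RPKM in control (log2 fold change -1.05, SE 0.146, adjusted p = 4.8e-04). SF3B4 (1q21.2) had 35.7 and 41.6 RPKM with TPA, against 58.7 and 65.4 RPKM in control (log2 fold change -0.67, adjusted p = 0.0047). SF3A3 (1p34.3) had 30.0 and 34.3 RPKM with TPA, against 45.5 and 54.8 RPKM in control (log2 fold change -0.62, adjusted p = 0.0083), and did not pass without control replicate 2 (adjusted p = 0.097). Without that library 3 of the 9 genes fell.

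SF3B1 was the SF3 gene with the highest level and did not pass. Its protein contacts the branch point and is recurrently mutated in myeloid and lymphoid neoplasms. SF3B1 (2q33.1) had 110 and 113 RPKM with TPA, against 113 and 128 RPKM in control (log2 fold change -0.11, adjusted p = 0.515). Among genes of the same SF3B complex, SF3B2 fell, at 76.9 ± 0.497 RPKM with TPA and 116 ± 0.381 RPKM in control. Transcripts of the subunits thus did not keep 1 ratio between the groups.

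Most SF3 promoters held the same 8-letter word, a group singled out after its count was seen. In RefSeq windows of 250 bases before to 50 after each gene's start (GRCh38.p14), found for 65 of the 75 genes, the letters CCGGAAGT, a core that ETS transcription factors recognise, were searched on both strands. They stood in 6 of the 8 SF3 genes with a window (75.0%), in 14 of all 65 splicing factor genes (21.5%), in 10.7% of the 8941 tested genes with a window and in 4.95% of all 27305 genes of the promoter table. The stretches below lie before the start sites of the 6 SF3 genes, with those 8 letters in capitals (read as ACTTCCGG where they lie on the other strand), and show the shared word and its differing surroundings.
SF3A1: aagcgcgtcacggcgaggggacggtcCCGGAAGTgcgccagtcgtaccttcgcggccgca
SF3A2: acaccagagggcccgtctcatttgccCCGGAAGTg
SF3A3: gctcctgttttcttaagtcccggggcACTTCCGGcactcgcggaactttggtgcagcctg
SF3B2: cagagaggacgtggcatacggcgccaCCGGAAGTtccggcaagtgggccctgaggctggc
SF3B4: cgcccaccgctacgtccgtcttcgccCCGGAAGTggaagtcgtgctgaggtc
SF3B6: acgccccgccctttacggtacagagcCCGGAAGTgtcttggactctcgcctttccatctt
They lie at chr22:30356910-30356969 (minus strand), chr19:2236789-2236823 (plus), chr1:37990058-37990117 (minus), chr11:66052285-66052344 (plus), chr1:149927804-149927855 (minus) and chr2:24076452-24076511 (minus), in the order shown.

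By call, the word stood in 10 of the 41 genes with a window that fell (24.4%), in 4 of the 17 that did not pass (23.5%), SF3A1 and SF3B6 among them, and in 0 of the 5 that rose. The E-box CACGTG, which MYC and related factors recognise, stood in 8 of the 65 genes (12.3%), 7 of them hnRNP genes, against 13.0% of the tested genes with a window. A match is a description of these letters in this window only.

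The PRPF genes, named after yeast mutants in pre-mRNA processing, include proteins of the U4/U6 and U5 particle and of the complex that activates the spliceosome. Of 13 genes, 7 fell (53.8%, against 29.8% of all genes tested), 1 rose (7.7%, against 28.4%) and 5 did not pass. The median log2 fold change was -0.37, the smallest of the 7 groups. PRPF4 (9q32), a U4/U6 protein, had 17.7 and 17.6 RPKM with TPA, against 33.1 and 35.6 RPKM in control (log2 fold change -0.92, adjusted p = 5.1e-04). PRPF19 (11q12.2), a ubiquitin ligase that names the activating complex and had the highest level of the group, had 64.7 and 69.1 RPKM with TPA, against 121 and 132 RPKM in control (log2 fold change -0.91, adjusted p = 6.6e-04). PRPF38B (1p13.3) had 18.1 and 22.5 RPKM with TPA, against 29.5 and 37.0 RPKM in control (log2 fold change -0.68, adjusted p = 0.0088), and did not pass without control replicate 2 (adjusted p = 0.0709) or TPA replicate 1 (adjusted p = 0.0536).

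PRPF8 and PRPF31 were at the threshold. PRPF8 (17p13.3), the U5 protein at the catalytic centre, had 54.5 and 36.4 RPKM with TPA, against 66.1 and 63.2 RPKM in control (log2 fold change -0.53, adjusted p = 0.046), with the TPA libraries far apart. It did not pass without control replicate 1, control replicate 2 or TPA replicate 2 (adjusted p = 0.0955, 0.0566 and 0.194), and after median-of-ratios scaling (adjusted p = 0.0978). PRPF31 (19q13.42), which joins U4/U6 to U5, had 25.9 and 29.3 RPKM with TPA, against 35.4 and 36.4 RPKM in control (log2 fold change -0.37, adjusted p = 0.046), and did not pass without control replicate 1, control replicate 2 or TPA replicate 1 (adjusted p = 0.198, 0.26 and 0.142). Without control replicate 2, 4 PRPF genes fell, and without TPA replicate 1, 2 PRPF genes rose.

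PRPF40B (12q13.12) was the PRPF gene that rose. It had 3.17 and 2.78 RPKM with TPA, against 1.02 and 0.947 RPKM in control (3.02 times the control mean, adjusted p = 3.4e-04), and is named because it was among the 5 genes that rose, after its values were seen. It overlaps FMNL3 in RefSeq, which had 8.71 and 7.31 RPKM with TPA, against 1.24 and 0.866 RPKM in control, and the part of FMNL3 reads in the PRPF40B values was not tested, since strand use in counting is not given. In all, 20 of the 75 genes overlap another gene whose mean reached 1 RPKM. SRSF2 is one of them, overlapping MIR636 and MFSD11, which had means well below its own in both groups.

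Among genes of splicing outside these families, listed by role, falls also outnumbered rises. Of 120 such genes 115 were tested, 49 fell (42.6%), 9 rose (7.8%) and 57 did not pass, with a median log2 fold change of -0.31. Over all genes tested 29.8% fell and 28.4% rose, and over protein-coding genes whose mean reached 10 RPKM, 33.9% fell and 24.0% rose. Among LSM genes, most of whose products form the Sm-like ring of U6, 5 of 7 fell (71.4%) and 0 rose. LSM5 fell with a log2 fold change of -1.01. LSM3 fell too, at 33.8 ± 3.63 RPKM with TPA and 69.3 ± 11.3 RPKM in control. Of 14 genes for snRNP assembly 5 fell (35.7%, near the share of all genes) and 0 rose, GEMIN5 among them with a log2 fold change of -0.90 and GEMIN4 at 12.6 ± 0.215 RPKM with TPA and 33.3 ± 1.17 RPKM in control, while the methyltransferase gene PRMT5 did not pass. Of 5 exon junction complex genes 3 fell (60.0%) and 0 rose, EIF4A3 and MAGOHB most, with log2 fold changes of -1.20 each. At an unadjusted p under 0.05 in limma, 0 LSM and 0 exon junction genes and 1 assembly gene were higher. DDX39B, DHX16 and LSM2, all in band 6p21.33, were listed at or near 0 in every library. The part of the gene model and read assignment in these low values was not tested.

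Of 7 genes for kinases that act on SR proteins, 2 fell, 2 rose and 3 did not pass, 28.6% each way and so close to the shares over all genes tested (29.8% and 28.4%). SRPK1, a mainly cytoplasmic kinase that promotes nuclear entry of SR proteins, had 33.8 and 39.4 RPKM with TPA, against 65.9 and 70.5 RPKM in control (log2 fold change -0.88, adjusted p = 0.0010), and SRPK2 fell too (log2 fold change -0.44, adjusted p = 0.026). CLK1 and CLK4, nuclear kinases that release SR proteins from speckles, rose. CLK1 had 50.9 and 85.7 RPKM with TPA, against 33.1 and 44.5 RPKM in control (log2 fold change 0.77, adjusted p = 0.029), and CLK4 had 10.2 and 15.2 RPKM with TPA, against 5.14 and 7.90 RPKM in control (log2 fold change 0.87, adjusted p = 0.012). CLK2 and CLK3 did not pass. PRPF4B, a kinase counted among the PRPF genes, fell with a log2 fold change of -0.68.

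Of 30 activation and catalytic factors 12 fell (40%), 3 rose (10%) and 15 did not pass, against 29.8% and 28.4% of all genes tested. RBM17 (SPF45), which acts at the end of the intron, had 165 and 199 RPKM with TPA, against 31.4 and 36.9 RPKM in control (log2 fold change 2.38, adjusted p = 7.9e-06). CRNKL1 rose too (log2 fold change 0.51, adjusted p = 0.013), whereas the helicase genes DDX39A and DHX15 fell with log2 fold changes of -1.91 and -1.01. Of 7 SNRNP genes 3 fell (42.9%), SNRNP40 and SNRNP70 among them with log2 fold changes of -0.96 and -0.91. SNRNP25 was the 1 that rose (14.3%), with a log2 fold change of 0.35 (adjusted p = 0.048 in limma).

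Of 29 other splicing regulators 12 fell (41.4%), 3 rose (10.3%) and 14 did not pass, against 29.8% and 28.4% of all genes tested. RBFOX2, which binds UGCAUG, had 31.9 and 31.0 RPKM with TPA, against 8.35 and 8.76 RPKM in control (log2 fold change 1.77), and the epithelial regulator ESRP2 had 7.62 and 8.67 RPKM with TPA, against 1.62 and 1.42 RPKM in control (log2 fold change 1.86). PTBP1, a repressor that binds pyrimidine tracts, had 87.5 and 81.9 RPKM with TPA, against 194 and 176 RPKM in control (log2 fold change -1.12, adjusted p = 2.3e-04), while its relative PTBP2 had 8.12 and 11.6 RPKM with TPA, against 8.45 and 11.3 RPKM in control, and did not pass.

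MBNL3 and MBNL1 fell with log2 fold changes of -1.71 and -0.83. TRA2B, an SR-like activator, had 49.9 and 60.6 RPKM with TPA, against 88.3 and 104 RPKM in control and fell (adjusted p = 0.0032), whereas TRA2A had 36.6 and 47.8 RPKM with TPA, against 46.3 and 53.2 RPKM in control and did not pass. The paraspeckle genes SFPQ and NONO did not pass (adjusted p = 0.115 and 0.249). Of the 16 SR-related genes 7 fell (43.8%, against 29.8% of all genes tested) and 0 rose. PNN and RNPS1 were at log2 fold changes of -1.28 and -0.86, and 0 rose at an unadjusted p under 0.05 in limma as well.

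**Figure D5:**
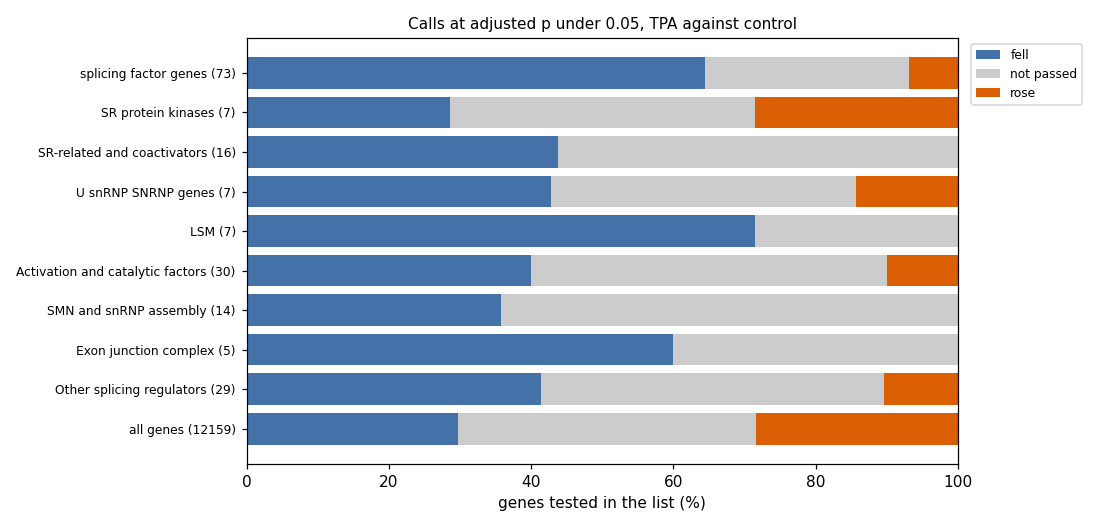
Share of the genes tested in each list (horizontal axis, %; number tested in brackets) that fell, did not pass or rose at an adjusted p under 0.05, TPA against control. The 73 splicing factor genes and 7 LSM genes have the widest share that fell, and the kinase list has as many rises as falls.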

How the data were processed

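RNA-seq values of 4 libraries (2 TPA, 2 control) were read from 1 table; groups and replicate numbers came from the sample titles. The deposited values are RPKM, per the file headers. CASAVA 1.8, Bowtie 1.12, TopHat, SAMtools and HOMER with the build hg19 are named in the submitters' processing notes, without role or order. Strand use and the treatment of multi-mapping reads are not given in the sources used here.

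The 12159 genes that reached 1 RPKM in 2 or more libraries were fitted in R 4.3.3 with limma 3.58.1 on log2(RPKM + 1) with no further scaling (eBayes with trend, 2 residual degrees of freedom, 5.88 from the prior), two-sided, with Benjamini-Hochberg adjustment over all of them. Log2 fold changes are on that scale and understate the change of low genes. The procedure was also run on simulated data in which a far smaller share of genes changed than was called here. That run does not show how the fit behaves on these data. Relative depth came from genes between 0.03 and 0.15 RPKM in both libraries compared, and only from those whose ratio was near 1. Members were named by a rule: the highest level in each role group, the 3 largest rises and falls past the threshold (mean 5 RPKM or more, groups not overlapping), members below the filter, and a fixed set. The members, lists and rule were chosen with earlier results of these data known. Related genes were named by the 2 smallest p-values in each direction per list or from a fixed set. SRSF8, SRSF9, SRSF10, PRPF4B, PRMT5, SF3B2, CLK2, CLK3, DDX39B, DHX16 and LSM2 were named after their values were seen. Promoter sequences are RefSeq's. The 13 alternatives tried are in the closing section. Figures were drawn with matplotlib 3.10.9. Some single-gene values, 1 point of a figure among them, are not reported here, though counts and medians over lists include them.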

Additional observations from a re-analysis of the deposited data

How the results depend on the processing

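Across the 13 alternatives the median log2 fold change of the splicing factor genes stayed between -0.583 and -0.403, and no gene with a call in either fit changed sign. The number that rose was 5 with all libraries and 3 with no filter on low values, with the filter at 5 RPKM and at an adjusted p under 0.01; leaving out 1 library gave 3 to 5 that rose and 31 to 45 that fell. By role, the U1 and U2 proteins had 0 that rose with no filter and at 0.01, and 0 to 1 without 1 library. U2AF had 0 that rose with no filter, with the filter at 5 RPKM, after quantile normalization and at 0.01, and 0 to 1 without 1 library. PRPF had 0 that rose with the filter at 5 RPKM, 2 after median-of-ratios scaling, 2 after quantile normalization and 2 with the replicate number as a block, and without 1 library 1 to 2 rose and 4 to 6 fell. The SR proteins had 1 that rose after quantile normalization and 4 that fell at 0.01, and 4 to 7 fell without 1 library. SF3 had 3 to 5 that fell without 1 library. The filter at 5 RPKM removes low genes by construction, U2AF1L4 and PRPF40B among them; the cause of the other differences was not tested. Of the 47 falls and 5 rises, 30 and 3 kept their call in every alternative that tested them.

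The replicate numbers pair nothing in the labels. With the number as a block (replicate block), 56 splicing factor genes fell and 6 rose, and over all genes 4288 fell and 3946 rose. The differences between replicates 1 and 2 of both groups correlated across genes (r = 0.361), and this block changed no count by over 1.5 times except the PRPF rises given above. The number of reads is unknown, so no counting error is given, and 2 libraries per group limit every comparison.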

Other observations

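Rows with a matching symbol that are not protein-coding or carry a hyphen were left out by the rule. Of these, HNRNPUL2-BSCL2 was listed at 38.1 and 44.4 RPKM with TPA and at 48.9 and 51.2 RPKM in control, close to HNRNPUL2 itself, with which it shares sequence. HNRNPA1P10 was listed at 115 and 123 RPKM with TPA and at 149 and 151 RPKM in control. The other 4 pseudogene rows stayed under 1 RPKM in every library.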
